A study of Mus musculus with 21 samples.

Results

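The genes described here encode the leptin receptor and the JAK-STAT pathway through which it signals, together with adaptors and brakes of that pathway. They are *Lepr*, *Jak2*, *Sh2b1*, *Stat3*, *Stat5a*, *Stat5b*, *Socs3*, *Ptpn1*, *Ptpn2* and *Asb4*, chosen by gene symbol, and they make up 10 of the 21654 genes of the deposited count table. All 10 averaged at least 50 reads over the libraries, as did 12768 genes in all, and were tested.

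Messenger RNA was sequenced from hypothalamic punches, which the study calls ventral hypothalamus (VH) and the sample labels circumventricular hypothalamus. The punches came from male C57BL/6J mice (spelled C57/B6J in the sample records), acquired at 12 to 14 weeks of age. Mice ate regular chow (RC) or high-fat diet (HFD) for some weeks and then either stayed on that diet (RC NoDS and HFD NoDS) or underwent a diet switch (DS) to the other diet for a week (RC → HFD and HFD → RC). This feeding scheme was meant to separate body weight from diet and energy balance. All mice, controls included, were kept awake with unfamiliar objects for 3 hours before sacrifice in the middle of the light phase (ZT6). Each library pooled the punches of 2 mice of the same group, so that the spread between libraries is a spread between pools and not between single mice. There were 5 libraries of RC NoDS, 6 of RC → HFD, 5 of HFD → RC and 5 of HFD NoDS. Their counts summed to between 16380781 and 16390598 reads per library, because the authors had re-sampled all libraries to a common depth.

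Leptin is released from fat in proportion to fat stores and acts on hypothalamic neurons, above all in the arcuate nucleus, to restrain feeding. When it binds the long form of its receptor, the attached kinase JAK2 phosphorylates the receptor, STAT3 docks there, is phosphorylated in turn and enters the nucleus to switch genes on. One of those genes is *Socs3*, whose product binds JAK2 and the receptor and shuts the signal down, and the phosphatases encoded by *Ptpn1* and *Ptpn2* strip phosphate from JAK2 and STAT3. Most of these steps are changes in phosphorylation, which read counts do not measure.

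Markers of the sampled region were present in every library. *Pomc*, a peptide precursor of the arcuate nucleus, had 5012 to 11836 reads, and *Nr5a1*, which marks the ventromedial nucleus, had 583 to 2235. The cortical marker *Neurod6* had 0 to 14 reads and the choroid plexus marker *Ttr* 0 to 74. The samples were bulk tissue, so that fewer cells expressing a gene and less RNA per cell cannot be told apart in any value below.

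Levels of the 10 genes were ranked by reads per kilobase of exon (mean over 21 libraries). *Asb4* led with 582 reads per kb, followed by *Sh2b1* with 467, *Stat5b* with 400 and *Stat3* with 340. Below these came *Ptpn1* (177), *Jak2* (147), *Socs3* (82.3), *Ptpn2* (57.6), *Stat5a* (24.7) and *Lepr* (19.5). Between neighbours in this order the ranges over the libraries overlapped, except between *Stat3* and *Ptpn1*. Within each of the 21 libraries *Stat3* was above *Ptpn1*, and *Ptpn2* above *Stat5a*. The receptor was thus the gene with the fewest reads per kb, and 4.73% of the tested genes lay below it. The counts do not separate the signalling long form of *Lepr* from its short forms.

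**Figure D1:**
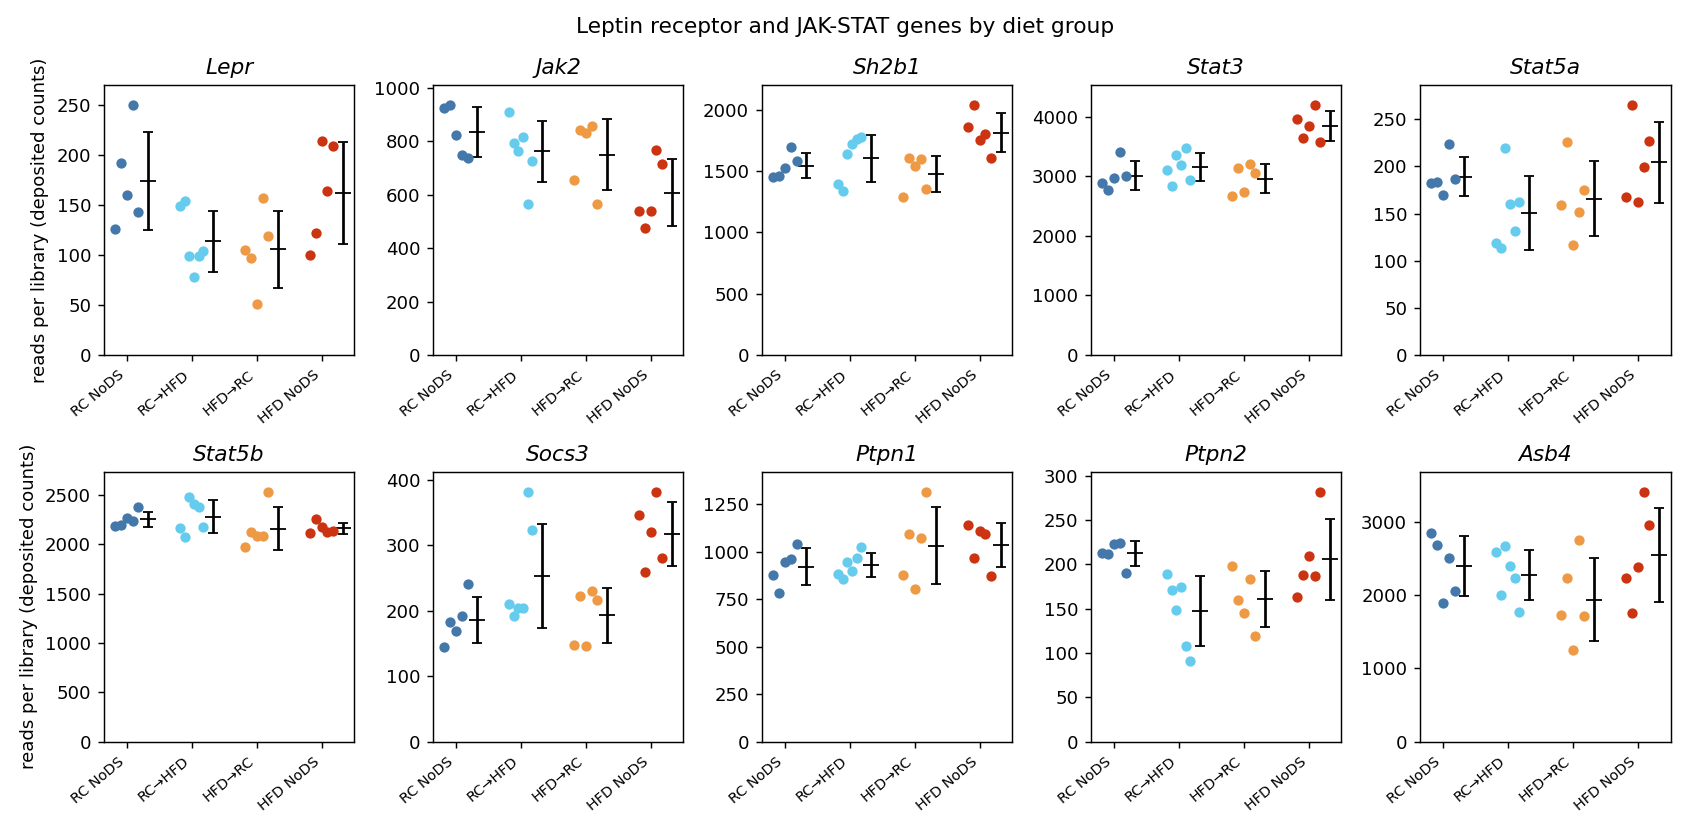
Reads per library (vertical axis, deposited counts) of the 10 genes in the 4 diet groups. Each point is 1 library and the bar beside it gives the mean and SD of the group; all 5 HFD NoDS libraries of *Stat3* lie above the 16 libraries of the other groups, the highest of which had 3475 reads.

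Of the 10 genes, *Stat3* was called differentially expressed, at an adjusted p under 0.15 (edgeR's quasi-likelihood test, Benjamini-Hochberg adjustment over 12768 genes), in RC NoDS v HFD NoDS, in HFD NoDS v HFD → RC and among all 4 groups. The other 9 genes were not called by edgeR in any of the 10 comparisons made. In RC NoDS v HFD NoDS, 0.0783% of all tested genes were called, in HFD NoDS v HFD → RC 0.0705%, and among all 4 groups 0.149%. The list as a whole was not tested against that background, and the result is one about *Stat3*.

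The receptor gene *Lepr* (ENSMUSG00000057722, chr4:101390009-101487957 in mm9, plus strand) was the most variable of the 10 genes over the libraries (coefficient of variation 35.8%). Its counts were 126, 192, 160, 250 and 143 reads in RC NoDS, and 100, 122, 214, 164 and 209 in HFD NoDS. They were 105, 97, 51, 157 and 119 reads in HFD → RC, and ranged from 78 to 154 with a median of 101.5 in RC → HFD. RC NoDS and HFD NoDS overlapped over most of their range, while 4 of 6 RC → HFD libraries and 4 of 5 HFD → RC libraries lay below every RC NoDS library. The log2 fold change was −0.09 for HFD NoDS over RC NoDS (SE, standard error, 0.27, adjusted p = 0.948), −0.59 for RC → HFD over RC NoDS (SE 0.26, adjusted p = 0.711) and −0.70 for HFD → RC over RC NoDS (SE 0.28, adjusted p = 0.489). The interaction of current and earlier diet, which asks whether eating HFD goes with another difference after HFD than after RC, was 1.20 on the log2 scale for *Lepr* (SE 0.38, unadjusted p = 0.00394, adjusted p = 0.280) and was not called.

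*Jak2* (ENSMUSG00000024789, chr19:29326318-29387570, plus strand) encodes the kinase bound to the receptor. It had 923, 936, 824, 749 and 737 reads in RC NoDS and 540, 476, 539, 768 and 715 in HFD NoDS. Of the 5 HFD NoDS libraries, 4 lay below every RC NoDS library and the remaining one, replicate 23, lay among them. The log2 fold change of −0.44 (SE 0.14, unadjusted p = 0.00334) did not pass the adjustment over all genes (adjusted p = 0.640), and with the estimated number of distinct RNA molecules, described below, as a covariate it was −0.19. Counts of the switched groups were 566 to 910 in RC → HFD and 564 to 856 in HFD → RC.

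*Sh2b1* (ENSMUSG00000030733, chr7:133610508-133618644, minus strand) encodes an adaptor that binds JAK2 and enhances its activity. It had 1862, 2040, 1751, 1805 and 1609 reads in HFD NoDS against 1286, 1608, 1543, 1601 and 1351 in HFD → RC. These groups did not overlap, though by a single read. HFD → RC differed from HFD NoDS by a log2 value of −0.29 (SE 0.09, adjusted p = 0.486), and HFD NoDS from RC NoDS, whose libraries overlapped, by 0.25 (SE 0.09, adjusted p = 0.640) and by 0.05 with the same covariate.

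*Stat3* (ENSMUSG00000004040, chr11:100746412-100800854, minus strand) encodes the transcription factor that carries the leptin signal to the nucleus and that also answers to cytokines such as interleukin-6 in glia. HFD NoDS libraries had 3967, 3636, 3839, 4195 and 3571 reads. RC NoDS libraries had 2888, 2776, 2973, 3403 and 3010, HFD → RC libraries 2661, 3131, 2738, 3213 and 3051, and RC → HFD libraries between 2840 and 3475 with a median of 3150. Every library of mice that stayed on HFD was therefore above every other library, whereas RC NoDS, RC → HFD and HFD → RC overlapped one another.

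*Stat3* rose 1.29-fold from RC NoDS to HFD NoDS, a log2 value of 0.37 (SE of the log2 value 0.07, adjusted p = 0.0454), from 3010 ± 237 reads (SD, n = 5) to 3842 ± 253 (n = 5). It was lower again in HFD → RC, by a log2 fold change of −0.37 relative to HFD NoDS (SE 0.07, adjusted p = 0.0896), with 2959 ± 245 reads (n = 5). The test among all 4 groups gave an adjusted p of 0.0499. RC → HFD stood at −0.28 on the log2 scale against HFD NoDS (SE 0.07, adjusted p = 0.354), which was not called although no library overlapped. The mean of both HFD-eating groups exceeded that of both RC-eating groups by 0.23 (SE 0.05, adjusted p = 0.167), and the interaction of current and earlier diet was 0.28 (SE 0.10, adjusted p = 0.366). A dependence of the HFD difference on the earlier diet was thus not called.

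The call of *Stat3* between RC NoDS and HFD NoDS depended on single libraries. Its adjusted p was 0.175 without RC NoDS replicate 1, 0.245 without RC NoDS replicate 2, 0.160 without HFD NoDS replicate 19 and 0.218 without HFD NoDS replicate 23, and 0.174 when only the libraries of these 2 groups were fitted, with log2 fold changes between 0.34 and 0.37. Between HFD NoDS and HFD → RC the adjusted p was 0.268, 0.282 and 0.204 without HFD → RC replicates 13, 15 and 17, 0.181 and 0.311 without HFD NoDS replicates 19 and 23, and 0.436 with only these 2 groups. The call among all 4 groups was lost without HFD NoDS replicate 23.

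The number of distinct RNA molecules behind each library was estimated from the share of low genes without a read, and it was another measure that moved with these groups. In units of 10⁶ molecules it was 8.20, 5.38, 6.398, 3.87 and 7.04 in RC NoDS and 2.31, 1.20, 2.497, 3.24 and 3.74 in HFD NoDS, without overlap. RC → HFD had 1.77 to 6.43 and HFD → RC 1.25 to 4.38 of these units. With this estimate as a covariate the log2 fold change of *Stat3* between RC NoDS and HFD NoDS was 0.28 and was not called (adjusted p = 0.9997). Because the estimates of these 2 groups did not overlap, that fit cannot tell diet from the number of distinct molecules. HFD → RC, whose estimates overlapped those of HFD NoDS, kept its call for *Stat3* in that fit. Within groups (group means subtracted, 21 libraries), *Stat3* and the log2 estimate had a Pearson r of −0.41 (permutation p = 0.0921) and a Spearman rho of −0.44 (permutation p = 0.0743), with adjusted values of 0.115 and 0.0929 over the 10 genes. Without the 2 libraries farthest from the median estimate, r was −0.50.

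**Figure D2:**
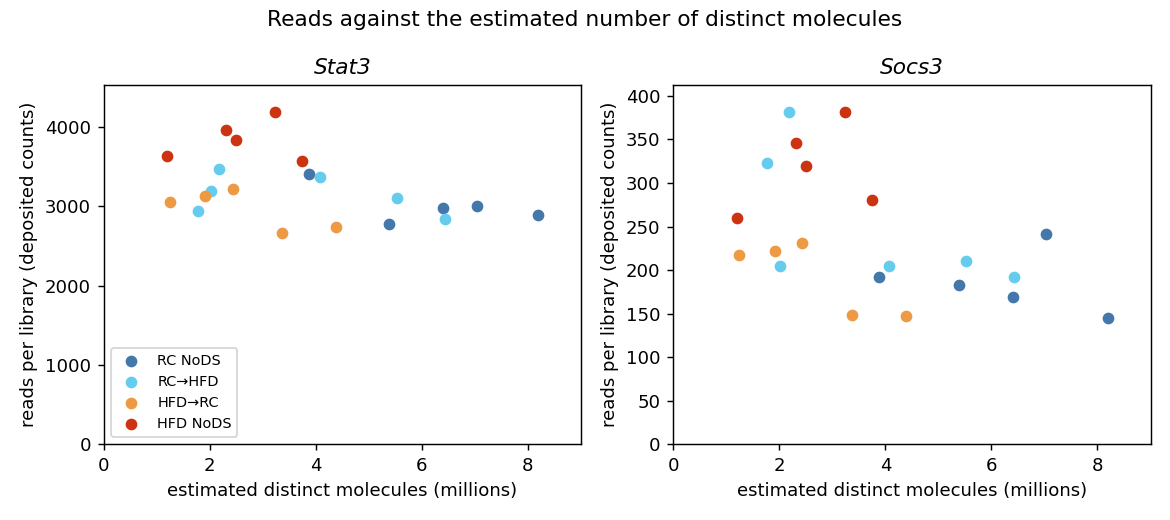
Reads of *Stat3* and *Socs3* per library (vertical axes, deposited counts) against the estimated number of distinct RNA molecules in units of 10⁶ (horizontal axis), 1 point per library and coloured by diet group. RC NoDS libraries lie at 3.87 and above, HFD NoDS libraries at 3.74 and below.

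The genes for *Stat5a* and *Stat5b*, related factors that answer to growth hormone and prolactin as well as to leptin, lie beside *Stat3* on chromosome 11. *Stat5b* (ENSMUSG00000020919) spans chr11:100642045-100712038 on the minus strand and *Stat5a* (ENSMUSG00000004043) chr11:100720665-100746483 on the plus strand. The annotated exons of *Stat5a* and *Stat3* share 72 bases on opposite strands, and although the library kit kept the strand of the RNA, it is not stated whether the counting used it. *Stat5b* was the steadiest of the 10 genes, with 1968 to 2531 reads over all libraries (coefficient of variation 6.56%), and its log2 fold change between RC NoDS and HFD NoDS was −0.04 (SE 0.07, adjusted p = 0.895). *Stat5a* had 170 to 224 reads in RC NoDS and 162 to 265 in HFD NoDS (log2 fold change 0.13, SE 0.21, adjusted p = 0.885). Neither neighbour thus showed the separation of groups seen in *Stat3*.

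*Socs3* (ENSMUSG00000053113, chr11:117827393-117831361, minus strand), the feedback inhibitor, had the largest fold change of the 10 genes between RC NoDS and HFD NoDS. Its counts were 346, 260, 320, 381 and 280 reads in HFD NoDS, 145, 183, 169, 192 and 241 in RC NoDS, and 148, 222, 147, 231 and 217 in HFD → RC. Every HFD NoDS library was above every RC NoDS and every HFD → RC library. RC → HFD ranged from 192 to 382 reads with a median of 207.5, since replicates 11 and 12 had 382 and 323 reads and the other 4 libraries at most 210.

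On the log2 scale *Socs3* differed by 0.79 between RC NoDS and HFD NoDS (SE 0.20, unadjusted p = 6.24e-04) and by −0.71 in HFD → RC relative to HFD NoDS (SE 0.20, unadjusted p = 0.00164). Adjusted over all genes these values were 0.469 and 0.416, so that edgeR did not call *Socs3*. The difference between HFD-eating and RC-eating groups was 0.59 (SE 0.14, adjusted p = 0.382). DESeq2 did call *Socs3* in RC NoDS v HFD NoDS, where it called 0.133% of all genes (adjusted p = 0.128; range over all settings 0.128 to 0.9997) and for current diet (adjusted p = 0.0616; range 0.0616 to 0.9994). DESeq2 also called *Socs3* among all 4 groups, where it called 1.04% of all genes. With the estimate of distinct molecules as a covariate the log2 fold change between RC NoDS and HFD NoDS was 0.47, and within groups *Socs3* had an r of −0.49 with that estimate (permutation p = 0.0604, adjusted 0.0863; rho −0.52, permutation p = 0.0391, adjusted 0.0883; r = −0.62 without the 2 farthest libraries).

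STAT dimers bind sites of the form TTCNNNGAA, so the promoters of the 10 genes were searched for these letters on both strands, and for the narrower TTCCNGGAA, whose matches are all matches of the wider motif too. RefSeq promoter windows (GRCm38.p6, 250 bases before to 50 after a gene start) were matched by symbol for 9 of the 10 genes, 14 windows in all. *Socs3* was the single gene with a match to TTCNNNGAA, from 154 to 146 bases before the RefSeq start of its window. TTCCNGGAA had no match in the 14 windows. Over all genes with a window, 9.55% of 27025 held TTCNNNGAA and 1.35% held TTCCNGGAA. The stretch around the match is shown because *Socs3* is the textbook target of STAT3 among these genes. It reads, 5′ to 3′ on the strand of the gene and with the matching letters in capitals:
Socs3: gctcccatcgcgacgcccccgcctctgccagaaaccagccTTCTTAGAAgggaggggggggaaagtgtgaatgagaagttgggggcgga
In the mm9 genome these 89 bases matched once on chromosome 11, at chr11:117830786-117830874 on the minus strand. The annotation places the stretch before the start of 2 transcripts of *Socs3*, by 21 and 286 bases, and in an intron of 1 other transcript. The searched window ended short of the farther of these starts. The bases directly before that start were therefore not searched for either motif. A match of letters is a description and was not examined for binding.

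*Ptpn1* (ENSMUSG00000027540, chr2:167757557-167804885, plus strand), which encodes the phosphatase PTP1B, had 781 to 1042 reads in RC NoDS, 856 to 1024 in RC → HFD, 804 to 1315 in HFD → RC and 871 to 1140 in HFD NoDS. The 4 groups overlapped, and the log2 fold change between RC NoDS and HFD NoDS was 0.19 (SE 0.11, adjusted p = 0.698). *Ptpn2* (ENSMUSG00000024539), which encodes the related phosphatase TCPTP, had 213, 212, 223, 224 and 190 reads in RC NoDS and between 91 and 189 in RC → HFD, with a median of 160. These groups were apart by a single read. From RC NoDS to RC → HFD the log2 fold change was −0.51 (SE 0.19, adjusted p = 0.685). *Ptpn2* had 163 to 282 reads in HFD NoDS and 119 to 198 in HFD → RC, and a log2 fold change of −0.03 between RC NoDS and HFD NoDS (SE 0.20, adjusted p = 0.980). Its interaction of current and earlier diet was 0.85 (SE 0.28, unadjusted p = 0.00538, adjusted p = 0.312), also without a call.

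*Asb4* (ENSMUSG00000042607, chr6:5333386-5383022, plus strand), a gene of the ankyrin repeat and SOCS box family that is expressed in feeding-related neurons of the arcuate nucleus, had the highest level per kb. It had 1895 to 2846 reads in RC NoDS, 1770 to 2665 in RC → HFD, 1257 to 2752 in HFD → RC and 1752 to 3409 in HFD NoDS. The ranges of the 4 groups overlapped, and the log2 fold change between RC NoDS and HFD NoDS was 0.10 (SE 0.16, adjusted p = 0.882).

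**Figure D3:**
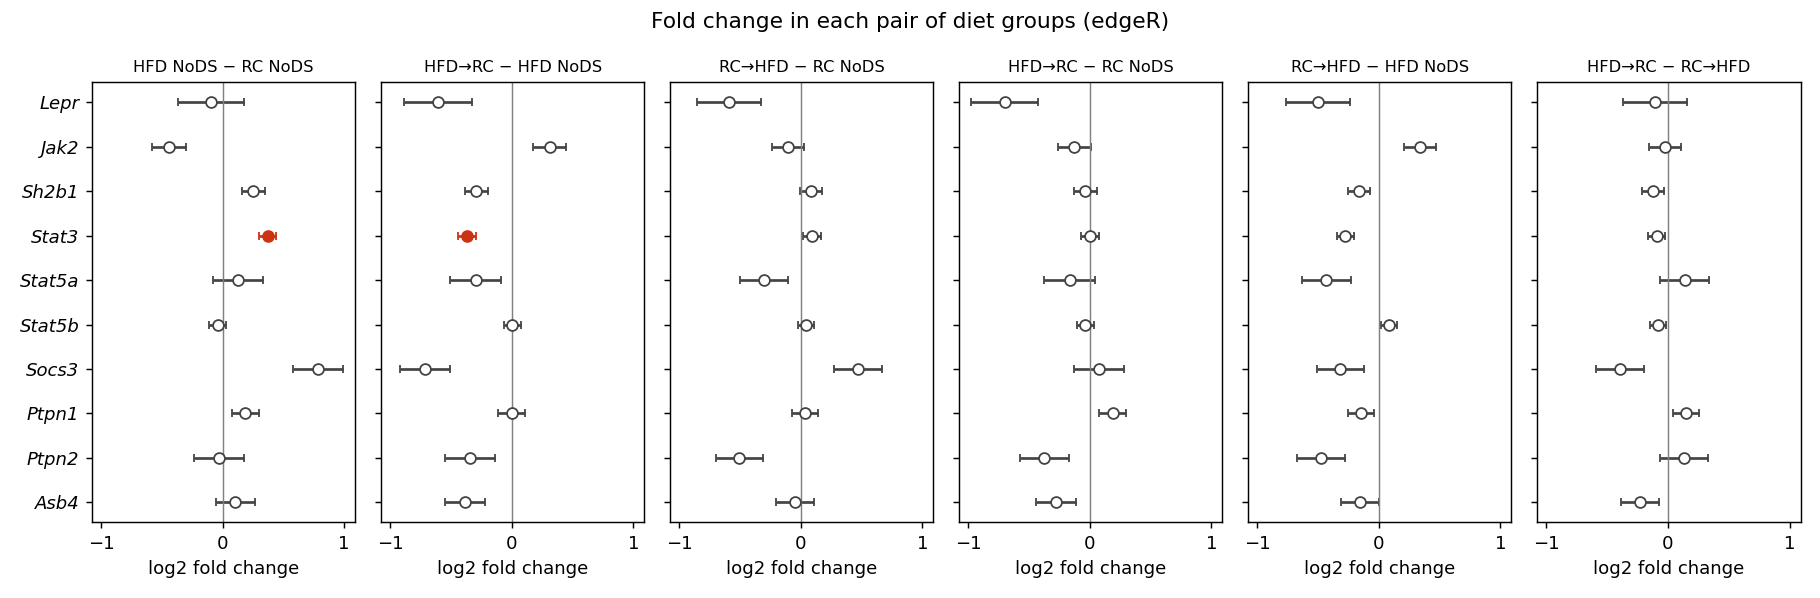
Log2 fold change (horizontal axis) with its standard error for the 10 genes (rows) in the 6 pairs of diet groups (edgeR); the title of each panel gives the group subtracted. Filled red points are called at an adjusted p under 0.15, and these are *Stat3* at 0.37 in HFD NoDS relative to RC NoDS and at −0.37 in HFD → RC relative to HFD NoDS.

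Groups whose counts did not overlap were counted for each pair. Between RC NoDS and HFD NoDS these were *Stat3* and *Socs3* (2 of 10 genes, against 0.893% of all tested genes), and between HFD NoDS and HFD → RC *Stat3*, *Socs3* and *Sh2b1* (3 of 10, against 1.02%). *Stat3* was the one gene apart between HFD NoDS and RC → HFD (background 0.744%) and *Ptpn2* the one apart between RC NoDS and RC → HFD (background 1.17%). No gene of the 10 was apart between RC NoDS and HFD → RC (background 1.32%) or between the DS groups (background 0.486%). In the pairs with HFD NoDS the same 5 HFD NoDS libraries enter each count.

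In the remaining comparisons edgeR called none of the 10 genes. Between the weight-matched DS groups, 0 of the 10 had an unadjusted p under 0.05, against 5.35% of all tested genes, and neither DESeq2 nor limma-voom called any (0.00783% of all genes called by edgeR). edgeR also called 0 of the 10 in RC NoDS v RC → HFD (0.0392% of all genes called), RC NoDS v HFD → RC (0.282%), earlier diet (0.0705%) and the interaction (0.0313%), and so did limma-voom and DESeq2, of which DESeq2 called 0.705%, 1.14%, 0.180% and 0.901% of all genes in these comparisons. At an unadjusted p under 0.05 these comparisons held 3, 1, 3 and 4 of the 10 genes, where 6.51%, 8.10%, 7.27% and 8.84% of all tested genes had such a p. In HFD NoDS v RC → HFD edgeR and limma-voom called 0 (edgeR called 0.0157% of all genes) and DESeq2, which called 0.251% of all genes, called 1, *Stat3* (adjusted p = 0.0972; range over all settings 0.0972 to 0.742). For current diet edgeR called 0 (0.0470% of all genes), DESeq2 called *Stat3* and *Socs3* (0.0940% of all genes) and limma-voom *Stat3* (0.0627%). An unadjusted p under 0.05 was found for 4 of the 10 genes in each of these comparisons, against 7.49% and 5.22% of all tested genes.

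The median log2 fold change of the 10 genes between RC NoDS and HFD NoDS was 0.12, against 0.01 over all tested genes, with 6 of 10 above 0. In HFD → RC relative to HFD NoDS the median was −0.32, against 0.00 over all tested genes, with 8 of the 10 below 0. At an unadjusted p under 0.05 there were 4 and 6 of the 10 genes in these comparisons, where 7.41% and 7.93% of all tested genes had such a p. Of 15 marker lists of cell types and regions, the paraventricular and supraoptic one had the lowest median in HFD → RC relative to HFD NoDS. It was −0.53, with 0 of 4 tested genes above 0 and none called. The lateral hypothalamus list had −0.24, with 0 of 5 tested genes above 0 and 1 called (0.0705% of all genes called). Arcuate, pericyte and meningeal markers, described below, also had medians below 0. Oligodendrocyte and blood cell markers had 0.25 and 0.34.

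Beyond the 10 genes, 9 lists with 131 different genes of the wider pathway were examined, of which 105 passed the filter. Among 24 listed target genes of STAT3, 17 were tested, and RC NoDS v HFD NoDS called 2 of them, *Serpina3n* and *Sbno2*. That comparison called 0.0783% of all tested genes. The study had already reported both genes from these libraries, and the list was written with earlier results known. The 2 calls are therefore not independent of the choice of the list. *Serpina3n*, a protease inhibitor made by reactive astrocytes, was higher in HFD NoDS by 0.93 on the log2 scale (SE 0.14, adjusted p = 0.00135), and *Sbno2*, a transcriptional co-regulator induced by STAT3, by 0.71 (SE 0.13, adjusted p = 0.0237). Both were lower in HFD → RC than in HFD NoDS, by −0.68 (SE 0.14, adjusted p = 0.108) and −0.61 (SE 0.13, adjusted p = 0.127). The median of the 17 was 0.18 between RC NoDS and HFD NoDS, with 13 above 0, and −0.28 in HFD → RC relative to HFD NoDS, with 3 above 0. With the estimate of distinct molecules as a covariate neither was called in RC NoDS v HFD NoDS (log2 fold changes 0.78 and 0.56, adjusted p = 0.170 and 0.9997), and *Sbno2* also lost this call without RC NoDS replicate 1 (adjusted p = 0.166).

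The calls of these genes between HFD NoDS and HFD → RC were less steady than their log2 values, which with a library left out stayed between −0.80 and −0.57 for *Serpina3n* and between −0.74 and −0.55 for *Sbno2*. *Serpina3n* lost that call with the filter at 5 reads, the robust dispersion or only the 2 groups, and in 6 of 21 fits with a library left out. *Sbno2* lost it with these settings and without a filter, and in 11 of 21 fits with a library left out (adjusted p up to 0.370 in those fits). Both genes were also called among all 4 groups (adjusted p = 0.00473 and 0.0499), and *Serpina3n* for current diet (adjusted p = 0.0572).

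*Gfap*, the filament protein of astrocytes and another listed target of STAT3, was called among all 4 groups (adjusted p = 0.125) and for earlier diet, where the groups fed HFD first exceeded those fed RC first by 0.73 (SE 0.15, adjusted p = 0.0891). It had 3635 ± 567 reads (SD, n = 5) in RC NoDS and 6330 ± 2203 (n = 5) in HFD NoDS, between which its log2 fold change of 0.82 was not called (SE 0.22, adjusted p = 0.601) except without HFD → RC replicate 14 or HFD NoDS replicate 24. The call for earlier diet was lost in 14 of the 28 other settings run, among them limma-voom, the robust dispersion and the covariate of distinct molecules, with log2 values of 0.66, 0.73 and 0.58.

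None of the 7 tested target genes of STAT5 was called by edgeR, all 7 had a fold change above 0 between RC NoDS and HFD NoDS (median 0.09), and 1 had an unadjusted p under 0.05. That gene was *Ccnd1*, which encodes cyclin D1 (log2 fold change 0.62, SE 0.15, adjusted p = 0.294) and which DESeq2 called (adjusted p = 0.0707; range over all settings 0.0707 to 0.9997), as edgeR did without RC NoDS replicate 6 or RC → HFD replicate 10. The next smallest were *Pim3* at 0.11 and *Pim2* at 0.09, both without a call.

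The other Janus kinases and STATs (6 of 7 tested) held no called gene in edgeR, DESeq2 or limma-voom between RC NoDS and HFD NoDS, with 1 at an unadjusted p under 0.05 and a median of 0.18. The 3 with the smallest p were *Stat6* at 0.44, *Stat2* at 0.18 and *Jak1* at −0.08 on the log2 scale. Of the other SOCS, PIAS and phosphatase genes that brake the pathway, all 16 were tested, 0 were called by these tools and 0 had an unadjusted p under 0.05. *Pias2* at −0.20, *Ptpn9* at −0.09 and *Socs5* at −0.09 came first among them.

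The adaptors and branches below the receptor (19 tested) likewise had 0 calls by the 3 tools and 1 unadjusted p under 0.05 between RC NoDS and HFD NoDS. The first of these were *Foxo1*, a transcription factor restrained by insulin and leptin through PI3 kinase, at −0.25, *Irs2* at 0.18 and *Pik3r1* at −0.13. Genes of receptor trafficking and transport (13 tested, 0 called by the 3 tools, 2 at an unadjusted p under 0.05) had 11 values below 0 between RC NoDS and HFD NoDS and a median of −0.07. *Bbs4* at −0.31 and *Bbs5* at −0.55 belong to the complex that carries receptors to the cilium, and *Leprotl1*, a relative of the gene for a regulator of receptor traffic, had −0.20. In RC NoDS v HFD → RC DESeq2 called 1 gene of each of these lists and 1.14% of all genes, and edgeR and limma-voom called none of either list.

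Other receptors that use Janus kinases (18 of 21 tested) had 0 calls by the 3 tools and 4 unadjusted p under 0.05 in the same comparison, with a median of 0.00. *Osmr*, the oncostatin M receptor, had a log2 difference of 1.02 (SE 0.34, adjusted p = 0.640) from 25 to 38 reads in RC NoDS and 14 to 103 in HFD NoDS, which overlapped. *Ghr* had −0.38 and *Prlr* −0.38. Of 14 listed ligands, 12 were analysed here and 2 passed the filter, the pituitary hormones *Gh* and *Prl*, with 0 to 2003 and 0 to 841 reads per library and no call by the 3 tools. *Il6* had reads in 2 of 21 libraries and *Lif* 0 to 34 reads. Leptin itself comes from fat, and its gene was not analysed here.

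Neuropeptides of leptin-responsive neurons (11 of 12 tested) held 4 genes called in RC NoDS v HFD NoDS, where 0.0783% of all tested genes were called. The study had already reported these 4 genes from the same libraries, and the list was written with earlier results known. Those that drive feeding were lower in HFD NoDS, *Npy* by a log2 fold change of −1.26 (adjusted p = 7.79e-05) and *Agrp* by −0.97 (adjusted p = 0.0507), and *Cartpt* and *Trh*, which restrain it, were higher by 0.89 (adjusted p = 9.30e-04) and 1.79 (adjusted p = 2.36e-07). The call of *Agrp* was lost with the robust dispersion (adjusted p = 0.255) and without RC NoDS replicates 1 and 5 or HFD NoDS replicates 19, 21 and 24 (adjusted p between 0.155 and 0.244). In HFD NoDS v HFD → RC 2 of the 11 were called, *Npy* higher and *Cartpt* lower in HFD → RC (0.0705% of all genes called). For current diet all 4 were called (0.047% of all genes). In RC NoDS v RC → HFD 3 were called, 1 higher and 2 lower in RC → HFD (0.0392% of all genes). Between the DS groups 1 was called, higher in HFD → RC (adjusted p = 0.0116; 0.00783% of all genes). In RC NoDS v HFD → RC 1 was called, higher in HFD → RC (adjusted p = 2.39e-04; 0.282% of all genes). For earlier diet 1 was called, higher after HFD (adjusted p = 2.62e-05; 0.0705% of all genes).

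Glial marker lists were read beside *Stat3*, since glia express it too. All 12 microglia markers had a fold change above 0 between RC NoDS and HFD NoDS (median 0.23) and none was called. Their summed reads were 8490, 8781, 8836, 8522 and 9601 in RC NoDS and 9201, 9988, 9896, 11458 and 9437 in HFD NoDS, with *Csf1r* the most abundant, and they were 7849 to 8952 in RC → HFD and 8744 to 11413 in HFD → RC. The 11 oligodendrocyte markers were likewise all above 0 (median 0.52, none called), with sums of 43642, 49682, 61638, 44287 and 63736 in RC NoDS and 65148, 107641, 59463, 104406 and 52012 in HFD NoDS, with *Mbp* the most abundant. The sums were 50431 to 72671 in RC → HFD and 52075 to 148642 in HFD → RC. At an unadjusted p under 0.05 there were 8 of the 11 in RC NoDS v HFD NoDS, against 7.41% of all tested genes. In RC NoDS v HFD → RC edgeR called 4 of the 11, all higher in HFD → RC (median 0.74; 0.282% of all genes called). For earlier diet it called 2 (0.0705% of all genes). limma-voom called 0 of the 11 in either comparison. In HFD → RC relative to HFD NoDS all 11 were above 0 (median 0.25, none called).

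The 10 astrocyte markers, led by *Aldoc*, summed to 67022, 70671, 76509, 66324 and 69106 reads in RC NoDS. In HFD NoDS the sums were 70274, 80515, 69520, 76439 and 66711, with a median fold change of 0.03 and no call. In edgeR 3 of the 10 had an unadjusted p under 0.05 there. The sums were 69150 to 75513 in RC → HFD and 72562 to 78517 in HFD → RC. In RC NoDS v HFD → RC edgeR called 1 of the 10, higher in HFD → RC (0.282% of all genes called). It called 1, *Gfap*, among all 4 groups (0.149%) and for earlier diet (0.0705%). limma-voom called 0 of the 10 in these comparisons. No gene of these 3 lists was at 0 over all libraries.

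Of the 15 marker lists of cell types and regions, that of the lateral hypothalamus was the one whose summed reads did not overlap between RC NoDS and HFD NoDS. Its 6 genes, of which *Pdyn* was the most abundant and none was at 0, summed to 8729, 8937, 7632, 8729 and 8398 reads in RC NoDS and to 10282, 11417, 11496, 12000 and 12355 in HFD NoDS. In HFD → RC the sums were 7724, 8752, 7330, 10227 and 7740, below every HFD NoDS library, and in RC → HFD they were 8980 to 11304. In RC NoDS v HFD NoDS 4 of the 5 tested genes had a fold change above 0 (median 0.47). The 2 called were *Cartpt* and *Hcrt*, in a comparison that called 0.0783% of all tested genes. *Hcrt*, which encodes orexin and is made in the lateral hypothalamus, had 28 to 105 reads in RC NoDS and 93 to 1051 in HFD NoDS, which overlapped (log2 fold change 2.71, SE 0.56, adjusted p = 0.0513). It was not called with limma-voom, the robust dispersion, the covariate of distinct molecules or only the 2 groups, with log2 values between 2.25 and 2.71, nor in 5 of 21 fits with a library left out. *Cartpt*, which is made in the arcuate nucleus too, carried most of the difference in the sum. Without it the other 5 genes summed to 4912 to 6671 reads in RC NoDS and 5061 to 6762 in HFD NoDS, which overlapped. The study had left out punches in which its arcuate genes were not enriched over *Hcrt*.

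Of the 10 blood cell markers 6 were tested, and all 6 had a fold change below 0 in RC NoDS v HFD NoDS (median −0.65, none called). The list, with *Hbb-b1* the most abundant gene and none at 0 over all libraries, summed to 3572, 4703, 4366, 3772 and 3447 reads in RC NoDS and 1597, 4340, 1612, 3270 and 2137 in HFD NoDS. The sums were 1110 to 2180 in RC → HFD and 757 to 6892 in HFD → RC. In HFD NoDS v HFD → RC, 2 of the 12 arcuate neuron markers were called, *Cartpt* lower and *Npy* higher in HFD → RC. That comparison called 0.0705% of all tested genes. Of the 12 markers, 10 had a fold change below 0 (median −0.27). Their sums, with *Pomc* the most abundant gene, were 21303, 23753, 22751, 28983 and 22117 reads in HFD NoDS and 16668, 26419, 18534, 19771 and 20104 in HFD → RC, and 18983 to 26400 in RC NoDS and 15352 to 24313 in RC → HFD. Of the pericyte and meningeal markers 9 of 10 were tested, and 7 were below 0 in that comparison (median −0.44, none called). These sums, with *Igf2* the most abundant gene, were 3132, 9987, 5633, 6787 and 6552 in HFD NoDS and 5371, 4400, 2766, 2730 and 6646 in HFD → RC, and 3699 to 8670 in RC NoDS and 3032 to 5145 in RC → HFD. Both lists overlapped between HFD NoDS and HFD → RC, and neither held a gene at 0 over all libraries.

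The summed reads of each glial list overlapped between RC NoDS and HFD NoDS. What part glial and blood content, the punched region and library complexity had in the differences of *Stat3*, *Socs3* and other genes was not tested. The covariate above cannot tell library complexity from diet between RC NoDS and HFD NoDS.

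The genes whose counts ran most like those of a gene of the pathway were sought among all tested genes by Spearman rho over the 21 libraries. For *Stat3* these were *Sbno2* (rho 0.95), *Serpina3n* (0.94) and *Cartpt* (0.92), and after each group's mean was subtracted *Ecel1* (0.90), *Serpina3n* (0.87) and *Gpx3* (0.84). For *Socs3* they were *Cartpt* (0.83), *H2-K1* (0.81) and *Serpina3n* (0.81), and *Eln* (0.85) and *Cacna2d2* (0.80) were near it within groups. *Serpina3n* thus stood among the nearest genes of *Stat3* with and without the group means.

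*Lepr* ran most like *Dnaja3* (0.77), *Itgb1* (0.75) and *Cyp4v3* (0.74), and within groups like *B4galt6* (0.81), *Plch1* (0.78) and *Nf1* (0.78). For *Asb4* the nearest was *Pcsk1*, which encodes a prohormone convertase, both over all libraries (0.89) and within groups (0.85). It was followed by *Dock11* (0.83) and *Arfip1* (0.81), and within groups by *Zdhhc20* and *Sf3a3* (0.85 each). All of these values come from a search over all tested genes and carry no test.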

How the data were processed

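The authors merged sequencing runs with Picard 2.7.1, aligned reads to mm9 with STAR 2.5.1b, used PORT to re-sample every library to the same depth, and deposited counts of whole reads per gene. Counts were tested with edgeR 4.0.16 (R 4.3.3; TMM, quasi-likelihood F-test, 1 mean per group, 21 libraries) over genes averaging at least 50 reads, with Benjamini-Hochberg adjustment over all of them and the study's threshold of 0.15. The test was checked on simulated data.

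Alternatives were DESeq2 1.42.0, limma-voom (limma 3.58.1), a minimum mean of 5 reads or none, library size in place of TMM, a robust dispersion, the estimated number of distinct molecules (log2) as a covariate, only the 2 groups compared, a threshold of 0.05, and each library left out. Replicates of a group differed by 6.89 to 42.0 times the variance of read sampling (chi-square per degree of freedom, 45 pairs), with 34.0 or more in the 4 pairs of HFD NoDS replicate 20 and at most 31.2 in the others. Correlations used log2 CPM (0.5 added) and 100000 permutations within groups.

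Members and gene lists were chosen with earlier results of these data known. Of each pathway list, genes called by edgeR in any comparison are named, otherwise the 3 with the smallest p in RC NoDS v HFD NoDS, and for *Lepr*, *Stat3*, *Socs3* and *Asb4* the 3 genes of highest rho, of which 1 is not reported here. Marker lists of 15 cell types and regions were also summed. Positions are from GENCODE on NCBIM37 (mm9), where all 21654 identifiers were found. Python 3.11.15, numpy 2.4.6, pandas 2.3.3 and matplotlib 3.10.9 were used.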

Additional observations from a re-analysis of the deposited data

Results flagged for a closer look

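In 40 sets of libraries (10 genes in 4 groups), 1 library lay far from the others of its group by Dixon's test. HFD NoDS replicate 20 had 2295 TMM-normalized reads of *Stat5b* (2252 as deposited), the highest of its group, and its gap to the next library made up 0.743 of the range of the group. Chance alone flags about 1 in 20 such sets. No gene of the 10 had a called interaction of current and earlier diet.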

How the results depend on the processing

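The numbers of pathway genes called were unchanged under all 9 other settings for RC → HFD v HFD → RC, RC NoDS v RC → HFD and RC NoDS v HFD → RC, and under all 8 for earlier diet and the interaction, and stayed at 0 with each library left out. For RC NoDS v HFD NoDS (1 gene) it was 2 with DESeq2 and 0 with the covariate of distinct molecules or only the 2 groups, for HFD NoDS v RC → HFD (0) 1 with DESeq2, for HFD NoDS v HFD → RC (1) 0 with only the 2 groups or a threshold of 0.05, for all 4 groups (1) 2 with DESeq2, and for current diet (0) 2 with DESeq2 and 1 with limma-voom. With single libraries left out it was 0 to 1 in RC NoDS v HFD NoDS, HFD NoDS v HFD → RC, all 4 groups and current diet, where *Stat3* was called without RC NoDS replicate 5, RC → HFD replicate 8, HFD → RC replicate 16 or HFD NoDS replicates 20 or 24, and 0 throughout in HFD NoDS v RC → HFD. The number of all genes called in RC NoDS v HFD NoDS (10) was 17 with DESeq2, 5 with the covariate and 5 to 14 with libraries left out. In HFD NoDS v HFD → RC (9) it was 44 with DESeq2, 4 with the filter at 5 reads, 5 without a filter, 2 with the robust dispersion, 15 with the covariate, 1 with only the 2 groups, 2 at the threshold of 0.05, and 1 to 13 with libraries left out. Among all 4 groups (19) it was 133 with DESeq2, 31 without a filter, 12 with the robust dispersion, 9 with the covariate, 9 at the threshold of 0.05 and 9 to 80 with libraries left out. Between RC NoDS and HFD NoDS the sign turned for 9 of the genes above, none of them called, in 13 cases over all settings. With the covariate these were *Ptpn1* (−0.0159), *Ptpn2* (0.266), *Stat5a* (−0.173), *Jak1* (0.0180), *Irs2* (−0.0229), *Pim2* (−0.0298) and *Pim3* (−0.0804). With single libraries left out, *Lepr* ranged from −0.2115 to 0.0781 (above 0 without RC NoDS replicate 5 or HFD NoDS replicate 19), *Ptpn2* from −0.1635 to 0.0409 (above 0 without HFD NoDS replicates 19 or 23), *Asb4* from −0.0195 to 0.207 (below 0 without HFD NoDS replicate 23) and *Pim3* from −0.0232 to 0.168 (below 0 without HFD NoDS replicate 20). The cause was not tested in any of these cases. No paired analysis was possible because the groups share no replicate number. The reads carry no molecular identifiers, so that copies of 1 molecule are counted apart, and for genes of few reads, above all *Lepr*, *Stat5a* and *Ptpn2*, the spread between libraries sets what could be detected.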

Other observations

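Pairs of the 10 genes were compared within groups, with group means subtracted, over 21 libraries. Of the 45 pairs, *Socs3* and *Ptpn1*, both brakes of the receptor, had the smallest p, with a Pearson r of 0.68 (permutation p = 6.00e-04, adjusted over 45 pairs 0.0270) and a Spearman rho of 0.75 (permutation p = 4.00e-04, adjusted 0.0180). Without the 2 libraries of *Socs3* farthest from the median, r was 0.73. *Ptpn2*, the other phosphatase, ran against both. Its r was −0.59 with *Ptpn1* (permutation p = 0.00349, adjusted 0.0785; rho −0.57, permutation p = 0.0104, adjusted 0.117; r = −0.64 without the 2 farthest libraries) and −0.64 with *Socs3* (permutation p = 0.00959, adjusted 0.0960; rho −0.56, permutation p = 0.0209, adjusted 0.157; r = −0.48 without those libraries). *Stat3* ran with *Ptpn1* (r = 0.63, permutation p = 0.00547, adjusted 0.0820) and with *Socs3* (r = 0.59, permutation p = 0.0122, adjusted 0.0960). Their rho was 0.63 (permutation p = 0.00640, adjusted 0.117) and 0.62 (permutation p = 0.00895, adjusted 0.117), and without the 2 farthest libraries r was 0.67 and 0.54. With *Sh2b1* the r of *Stat3* was 0.58 (permutation p = 0.0128, adjusted 0.0960) and rho 0.51 (permutation p = 0.0347, adjusted 0.195), with r = 0.49 without those libraries.

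The estimated number of distinct molecules was compared with each gene in the same way. The r of *Ptpn1* with that estimate was −0.56 (permutation p = 0.0129, adjusted over 10 genes 0.0425) and its rho −0.58 (permutation p = 0.0123, adjusted 0.0570), with r = −0.56 without the 2 farthest libraries. For *Sh2b1* r was −0.64 (permutation p = 0.00977, adjusted 0.0425) and rho −0.69 (permutation p = 0.00411, adjusted 0.0411), with r = −0.77 without those libraries. For *Stat5b* r was −0.61 (permutation p = 0.0157, adjusted 0.0425) and rho −0.59 (permutation p = 0.0171, adjusted 0.0570), with r = −0.45 without those libraries. For *Stat5a* r was −0.52 (permutation p = 0.0447, adjusted 0.0745) and rho −0.49 (permutation p = 0.0530, adjusted 0.0883), with r = −0.44 without those libraries. *Jak2* ran the other way, with r = 0.57 (permutation p = 0.0170, adjusted 0.0425) and rho 0.49 (permutation p = 0.0468, adjusted 0.0883), and r = 0.40 without those libraries, and so did *Ptpn2*, with r = 0.54 (permutation p = 0.0426, adjusted 0.0745) and rho 0.47 (permutation p = 0.0699, adjusted 0.0929), and r = 0.48 without those libraries. The part of library complexity in the relations between genes was not tested.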
